A study of Mus musculus with 29 samples.

Results

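Cdon, Boc and Gas1 encode the 3 cell surface co-receptors of Hedgehog ligands. Their rows were read by gene symbol from every count file, which makes 3 genes out of 23337 gene rows, and all 3 were found in all 29 libraries. The libraries hold RNA of C57BL/6 mouse embryos at embryonic day 9.0 that carry a Dll1-YFP mark, which labels cells whose ancestors expressed the Notch ligand Dll1, chiefly the mesoderm beside the neural tube. CTRL and DIR (n = 4 each) are presomitic mesoderm explants in culture, CTRL without additions and DIR with LDN and SAG. LDN is a small molecule known to block BMP type I receptors, and SAG one known to switch on the Hedgehog transducer Smoothened. Neither the concentrations nor the time in culture is given in the sources used here. SOMA (n = 3) comes from presomitic mesoderm together with the youngest somite, SOMB (n = 4) from somites 2 to 5, SOMC (n = 4) from somites 6 to 9, and SOMD (n = 4) from somite 10 to a last somite that the labels put at 13, 14, 15 or 16. These 4 groups, called SOM here, were dissociated and sorted for YFP. The labels list the explants as flow-sorted cells too, but the protocol text speaks of sorting for SOM only. MUT and WT (n = 3 each) are whole trunk tissue that was neither cultured nor sorted. Which gene or allele is mutated the labels do not say, though PEAT, a long non-coding RNA, is named in the title.

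Hedgehog proteins such as Sonic hedgehog, made by notochord and floor plate, bind the receptor Patched and so release Smoothened, which lets Gli factors switch on target genes; in a young somite this signal helps to form the sclerotome, the source of vertebrae and ribs. Cdon and Boc are transmembrane relatives built from immunoglobulin and fibronectin repeats, while Gas1 is a glycolipid-anchored protein related to the receptors of GDNF ligands. All of them bind Hedgehog ligand together with Patched and promote the signal, and their transcripts are known to be lowered where the signal is strong, which makes a negative feedback loop.

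The total of gene counts ran from 11541131 in SOMD2 to 44363411 in MUT1, and the co-receptors were counted deeply throughout, with 511 to 5640 counts for Cdon, 339 to 2255 for Boc and 959 to 11900 for Gas1. Presomitic markers (6 genes) summed to 483.7 to 719.4 CPM (counts-per-million) in SOMA and to at most 64.3 CPM in the other SOM groups. Sclerotome markers (Pax1, Pax9, Nkx3-2 and Sox9) summed to 17.3 to 58.4 CPM in DIR, below each SOMB library (66.7 to 171.6 CPM). MUT and WT also held neural tube RNA (8 markers, 205.8 to 344.1 CPM against at most 106.3 CPM elsewhere) and embryonic blood RNA. SOMC1 and SOMC4 were nearly identical in their counts, as were SOMD1 and SOMD4 (chi-square per degree of freedom of 1.90 and 1.86, against at least 8.75 in the 37 other pairs of a group), and they were kept as separate libraries. Every CTRL, DIR and SOM library held both Xist and the Y-linked Ddx3y, so each pools embryos of both sexes. Whether replicates are separate embryos or cultures is not stated, so that p-values measure only the spread between these libraries, which may be technical.

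The 3 genes differ in structure, which bears on their counts. Cdon (ENSMUSG00000038119.15) lies on the plus strand of GRCm38 at chr9:35421128-35507652, and its longest basic coding transcript has 20 exons and 7503 bases. Boc (ENSMUSG00000022687.12) lies on the minus strand at chr16:44485049-44558897, with 19 exons and 4451 bases, and the microRNA gene Mir3081 in one of its introns had at most 1 count in any library. Gas1 (ENSMUSG00000052957.8) is a gene of 1 exon and 2961 bases on the minus strand at chr13:60174405-60177365. The lincRNA gene Gm48488 on the opposite strand shares 589 exon bases with it, and since the library kit does not keep strand, reads of the pair cannot be told apart there. To show what lies before the starts of genes that both rose from SOMA to SOMB, the 250 bases upstream of the RefSeq start (GRCm38.p6) are printed 5′ to 3′ on the gene's strand for Cdon (chr9:35451826-35452075) and Gas1 (chr13:60177536-60177785), the 2 members with an entry. Capitals mark the only match to a searched motif.

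Cdon: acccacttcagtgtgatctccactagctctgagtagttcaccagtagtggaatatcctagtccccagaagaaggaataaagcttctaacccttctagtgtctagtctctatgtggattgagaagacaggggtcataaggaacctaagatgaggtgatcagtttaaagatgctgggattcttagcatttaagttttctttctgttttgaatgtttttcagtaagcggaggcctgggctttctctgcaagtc

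Gas1: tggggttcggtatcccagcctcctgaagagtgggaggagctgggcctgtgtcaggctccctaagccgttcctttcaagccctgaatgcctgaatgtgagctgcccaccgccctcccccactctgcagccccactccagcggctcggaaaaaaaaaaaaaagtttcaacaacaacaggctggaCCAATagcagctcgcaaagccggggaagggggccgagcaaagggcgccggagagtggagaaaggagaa

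The Cdon window belongs to an internal start inside the gene, downstream of the first start in the annotation at 35421128. The Gas1 window belongs to a RefSeq start at 60177535, upstream of the start in the annotation at 60177365. The 2 windows differ in base composition. The Cdon window holds 1 CpG and 42.8% G and C, the Gas1 window 10 CpG and 58.8%, and the median over 32851 windows was 6 CpG and 52.4%. On both strands, 5 motifs were searched, each as exact letters. They were a strong Gli site (TGGGTGGTC, in 0.225% of all windows of this length), a Brachyury core site (AGGTGTGA, in 1.12%), the TATA box TATAAA (12.4%), the E-box CAGCTG (13%) and the CCAAT box (33.8%). A CCAAT box that starts 68 bases before the RefSeq start of Gas1 was the only match, in letters that many windows hold.

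By mean level, the youngest paraxial tissue and the cultures were the lowest groups for all 3 co-receptors, with a gap to the formed somites and whole trunk for Cdon only. Levels are counts-per-million values scaled by TMM over all 29 libraries. Cdon averaged 38.1 ± 10.5 CPM in DIR, 39.96 ± 3.78 in SOMA and 43.6 ± 6.87 in CTRL, then 93.1 ± 8.6 in SOMB, 111.2 ± 12.5 in SOMC, 112.1 ± 4.46 in SOMD, 118.6 ± 1.78 in MUT and 130.2 ± 17.4 in WT (SD). In this order the ranges of neighbours overlapped except between CTRL and SOMB and between SOMD and MUT. Boc averaged 19.0 ± 2.25 CPM in DIR, 26.2 ± 5.19 in SOMA, 35.9 ± 7.54 in CTRL, 45.3 ± 6.59 in WT, 49.1 ± 2.66 in MUT, 53.1 ± 8.36 in SOMD, 53.4 ± 11.0 in SOMB and 55.6 ± 9.87 in SOMC. No neighbours in that order were apart. Gas1 averaged 62.8 ± 14.1 CPM in DIR, 118.3 ± 36.3 in CTRL, 132.2 ± 36.9 in SOMA, 189.0 ± 12.3 in SOMD, 196.4 ± 19.3 in WT, 222.3 ± 38.5 in MUT, 246.1 ± 16.3 in SOMB and 252.7 ± 43.5 in SOMC. Only DIR and CTRL were neighbours without overlap, so that DIR stood lowest for all 3 genes and apart from the rest for Gas1.

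**Figure D1:**
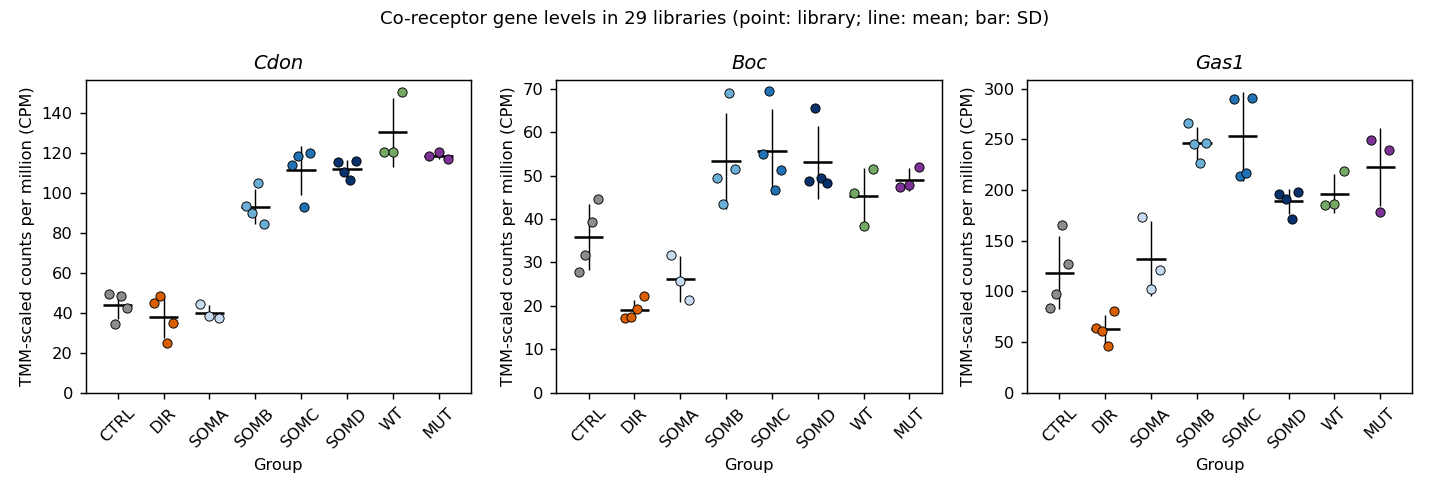
Levels of Cdon, Boc and Gas1 (y axis, TMM-scaled counts-per-million) in the 8 groups (x axis); points are libraries, horizontal lines means and vertical bars SD. For Cdon every CTRL, DIR and SOMA library lies at or below 49.3 CPM and every other library at or above 84.2 CPM, and Gas1 is lower in all 4 DIR libraries than in any other library.

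The first comparison asks how the co-receptors change as presomitic mesoderm turns into somites. All 3 rose from SOMA to SOMB. Cdon stood at 44.3, 38.3 and 37.3 CPM in SOMA and at 93.3, 90.0, 104.7 and 84.2 CPM in SOMB, a 2.32-fold rise (log2 fold change 1.21 ± 0.10, SE; edgeR adjusted p = 2.12e-06). The groups were far apart, with even the lowest SOMB library well above the highest SOMA library. Boc stood at 31.6, 25.7 and 21.3 CPM in SOMA and at 49.6, 43.4, 69.0 and 51.6 CPM in SOMB, a 2.02-fold rise (1.01 ± 0.18, adjusted p = 0.00192), again without overlap. Gas1 stood at 173.4, 102.2 and 121.1 CPM in SOMA and at 266.0, 245.6, 226.2 and 246.6 CPM in SOMB, a 1.85-fold rise (0.89 ± 0.15, adjusted p = 0.00142), and SOMA1 was the SOMA library nearest to SOMB for each gene. Thus 3 of 3 members were higher, where 8.67% of the 13790 genes tested were called, 4.13% as higher and 4.55% as lower, and Cdon was number 21 of those genes by p-value. In bulk RNA, more cells that express a gene and more RNA per cell cannot be told apart.

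Markers of other cell populations moved along with this step. The 6 presomitic markers, none of them at 0 in any SOM group, went from a summed 483.7 to 719.4 CPM in SOMA to 29.7 to 64.3 CPM in SOMB. The 4 sclerotome markers, also with none at 0, went from 6.61 to 19.4 CPM to 66.7 to 171.6 CPM. Of 7 neural tube markers tested, 3 were higher by edgeR and by DESeq2, with all 8 on the list summing to 30.6 to 47.8 CPM in SOMA and 33.3 to 106.3 CPM in SOMB. By both tools 2 of 5 formed somite markers and 1 of 2 myotome markers were also higher, and 1 of 3 notochord and floor plate markers was lower. Their part in the co-receptor result was not tested. Reads outside annotated features made up 12 to 12.8% in the number 1 libraries of each SOM group and in SOMC4 and SOMD4, and 7.57 to 10.7% in the others, and within each side of that split all 3 genes were higher in SOMB. The differences in log2 CPM were 1.07 for Cdon, 0.64 for Boc and 0.62 for Gas1 with a high share (1 library against 1), and 1.28, 1.18 and 1.1 with a low share (3 against 2).

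Past SOMB the steps were smaller and none passed in the main test. Cdon reached 113.7, 118.4, 92.9 and 119.7 CPM in SOMC and 115.5, 110.5, 106.6 and 116.0 CPM in SOMD. Of these, 3 SOMC libraries and all SOMD libraries were above each SOMB library, but the edgeR adjusted p was 0.238 from SOMB to SOMC (0.26 ± 0.09) and 0.996 from SOMC to SOMD (0.01 ± 0.09). Boc stood at 55.0, 69.5, 46.7 and 51.2 CPM in SOMC and 48.9, 65.6, 49.5 and 48.2 CPM in SOMD, with overlap at both steps (0.07 ± 0.16, adjusted p = 0.874, and −0.07 ± 0.16, adjusted p = 0.996). Its highest value in SOMB, SOMC and SOMD came from SOMB3, SOMC2 and SOMD2. Gas1 stood at 289.9, 213.5, 216.5 and 290.7 CPM in SOMC and at 196.0, 191.1, 171.0 and 197.8 CPM in SOMD, so that every SOMD library was below every SOMC library. That difference did not pass edgeR (−0.42 ± 0.14, adjusted p = 0.172). With replicate number as a block over all 15 SOM libraries it did (−0.40 ± 0.10, adjusted p = 0.0478). Same-numbered libraries deviated together between SOMC and SOMD (r 0.60 to 0.72). They did not all do so between SOMB and SOMC (−0.39 to 0.63) or SOMA and SOMD (−0.29 to 0.49), which that block also joins. The Gas1 difference was −0.36 with an edgeR adjusted p of 0.690 once the near-identical libraries were summed. Over SOMB to SOMC and over SOMC to SOMD, 0 of 3 members were called by edgeR or by DESeq2, and 1 each (Cdon, Gas1) had an unadjusted p under 0.05, where edgeR called 0.827% (0.486% higher, 0.341% lower) and 2.34% (1.26% higher, 1.07% lower) of all genes.

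From end to end of the series, SOMD against SOMA, all 3 members were higher, where 19.8% of all genes were called, 10.8% as higher and 8.92% as lower. Cdon rose 2.81-fold (1.49 ± 0.10, edgeR adjusted p = 6.13e-08) and Boc 2.02-fold (1.01 ± 0.18, adjusted p = 8.05e-04). Gas1 rose 1.43-fold (0.52 ± 0.15, adjusted p = 0.0251), and its groups overlapped, since SOMA1 at 173.4 CPM was above SOMD3 at 171.0 CPM. This call on Gas1 was lost without SOMA3 (0.36, adjusted p = 0.133), SOMA4 (0.46, 0.110), SOMD1 (0.50, 0.0578) or SOMD4 (0.50, 0.0607).

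Ratios of raw counts within a library need no scaling. SOMA1, SOMA3 and SOMA4 had 3.92, 2.67 and 3.25 Gas1 counts per Cdon count. The ratio was 2.85, 2.73, 2.16 and 2.93 in SOMB, 2.55, 1.80, 2.33 and 2.43 in SOMC, and 1.70, 1.73, 1.60 and 1.70 in SOMD. All SOMD libraries were thus below all other SOM libraries, with a mean of 1.68 ± 0.0547 against 3.28 in SOMA. That SD counts SOMD1 and SOMD4 as separate, though their counts were nearly identical over all genes. In the trunk, WT libraries had 1.54, 1.55 and 1.45, below SOMD, and MUT libraries 2.11, 1.48 and 2.04, on both sides of SOMD. The number of Cdon counts per Boc count averaged 1.55 in SOMA, 1.78 in SOMB, 2.02 in SOMC and 2.15 in SOMD, with ranges that overlapped between neighbours, and was 2.24 to 2.52 in MUT and 2.61 to 3.13 in WT, which did not overlap. Gas1 counts per Boc count overlapped between MUT (3.73 to 5.28) and WT (4.02 to 4.84). No test was made of these ratios, and how many other gene pairs set MUT apart from WT was not counted.

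**Figure D2:**
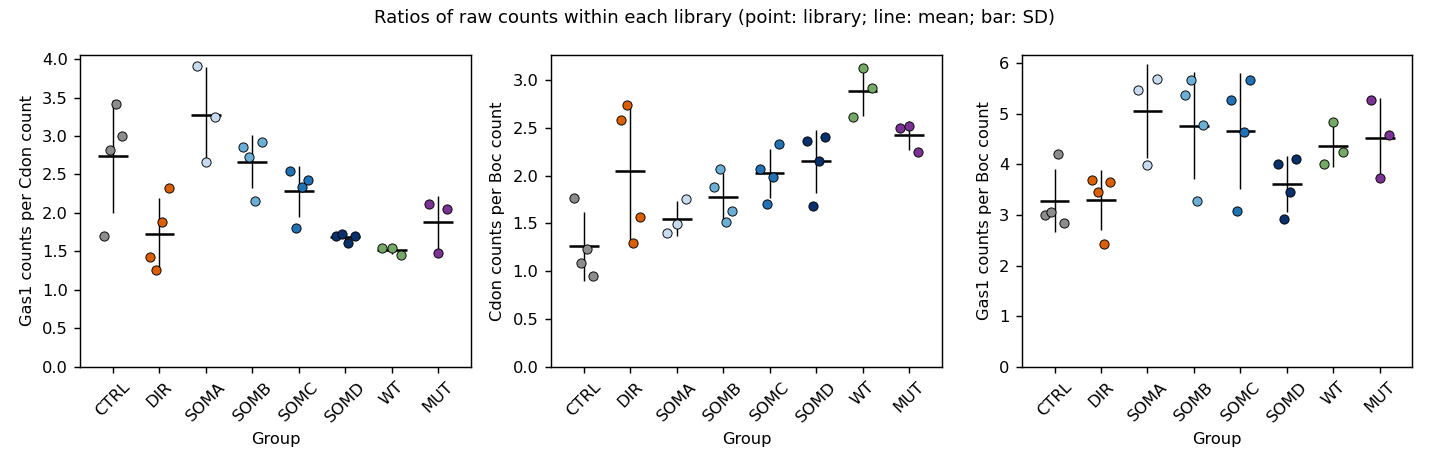
Ratios of raw counts within each library (y axes, Gas1 per Cdon, Cdon per Boc and Gas1 per Boc) in the 8 groups (x axis); points are libraries, horizontal lines means and vertical bars SD. The 4 SOMD libraries, of which SOMD1 and SOMD4 are nearly identical, lie at 1.60 to 1.73 Gas1 counts per Cdon count, below all SOMA, SOMB and SOMC libraries.

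In culture with LDN and SAG, which the labels describe as inducing sclerotome, Boc fell. Boc stood at 27.9, 31.7, 39.3 and 44.6 CPM in CTRL and at 17.2, 17.5, 19.2 and 22.2 CPM in DIR, without overlap, a 1.91-fold drop (−0.93 ± 0.17, edgeR adjusted p = 0.0487). Gas1 stood at 83.7, 96.9, 165.4 and 127.2 CPM in CTRL and at 63.6, 60.4, 46.4 and 80.8 CPM in DIR. Its groups were also apart, by a narrow gap, and the estimate was the same as for Boc, but with a wider spread it did not pass (−0.93 ± 0.23, adjusted p = 0.141; DESeq2 adjusted p = 0.0137). Cdon stood at 49.3, 34.4, 48.3 and 42.4 CPM in CTRL and at 44.6, 48.1, 24.7 and 34.8 CPM in DIR, with overlapping groups (−0.21 ± 0.21, adjusted p = 0.660). So 1 of 3 members was lower, where 0.747% of 14190 genes were called, 0.303% as higher and 0.444% as lower, and Boc was number 102 by p-value, near the last of 106 genes called. The Boc call rests on the full set of libraries: its adjusted p was 0.0320 without CTRL1 and 0.0893 to 0.171 without any other library, and 0.0501 and 0.0506 with RLE factors and without scaling.

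Several measures moved with the treatment besides the co-receptors. Lateral plate markers (Hand1, Hand2 and Gata4, none at 0) summed to 84.0 to 170.1 CPM in CTRL and 25.7 to 47.0 CPM in DIR. Intermediate mesoderm markers (4 genes, none at 0) went from 48 to 83.6 CPM to 20.5 to 44.3 CPM, and sclerotome markers from 10.1 to 15.3 CPM to 17.3 to 58.4 CPM. Neural tube markers (8 genes, none at 0) summed to 19.1 to 29.9 CPM in CTRL and 29.7 to 52.3 CPM in DIR, with 1 of 7 tested called higher by edgeR and 2 by DESeq2. Blood markers (4 genes, none at 0) summed to 11.0 to 19.3 CPM in CTRL and 19.0 to 64.5 CPM in DIR, with 0 called by edgeR, 2 by DESeq2 and 3 higher at an unadjusted p under 0.05. Their part in the fall of Boc was not tested. Reads that aligned to several places made up 22.3 to 25.4% of CTRL1, DIR1 and DIR2 and at most 19.5% of the other 5 cultures. Within the high-share libraries (2 against 1) DIR minus CTRL was −0.67 in log2 CPM for Boc, −0.43 for Gas1 and −0.09 for Cdon. Within the low-share libraries (2 against 3) it was −0.87 for Boc, −1.04 for Gas1 and −0.49 for Cdon. The same 3 high-share libraries had the most Cdon counts per Boc count, at 1.77, 2.59 and 2.74 against 0.950 to 1.57 in the other 5.

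Whether the change in culture differs from the change in the embryo was tested directly, in 1 fit of all 29 libraries, as DIR minus CTRL less SOMB minus SOMA. These comparisons share no library, but culture and library set cannot be told apart from the groups. The difference was −1.41 ± 0.21 for Cdon (edgeR adjusted p = 9.15e-05), −1.94 ± 0.24 for Boc (adjusted p = 8.21e-06) and −1.81 ± 0.27 for Gas1 (adjusted p = 9.10e-05). All 3 members were lower by this measure, where 4.97% of 15223 genes were called, 2.59% as higher and 2.38% as lower. The sclerotome factor Pax1 by contrast was higher with LDN and SAG (3.93 ± 0.45, adjusted p = 0.00529) as it was from SOMA to SOMB (4.51 ± 0.52, adjusted p = 3.48e-05). Presomitic markers did not fall in culture as they did in the embryo. They summed to 204.6 to 408.8 CPM in CTRL and 261.3 to 669.0 CPM in DIR, against 483.7 to 719.4 CPM in SOMA and 29.7 to 64.3 CPM in SOMB. By the difference between culture and embryo, edgeR called all 6 higher. Their part in the co-receptor result was not tested.

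**Figure D3:**
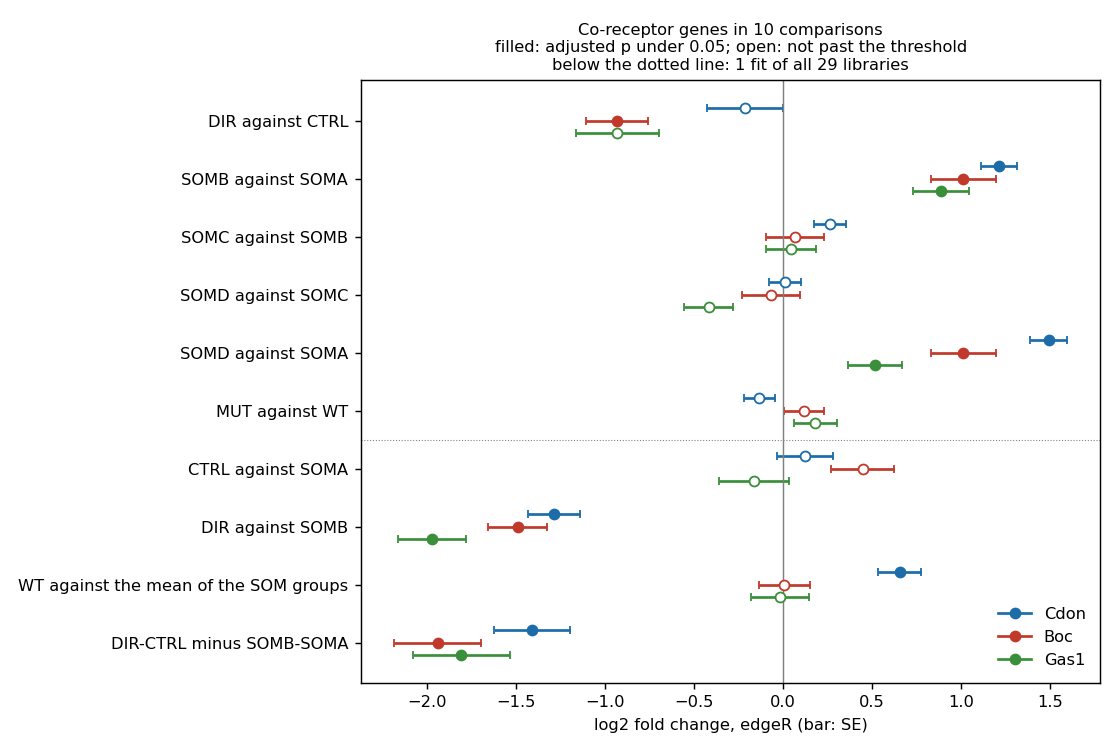
Log2 fold changes (x axis; bars are SE) of Cdon, Boc and Gas1 in 10 comparisons (y axis); filled points have an edgeR adjusted p under 0.05. All points for SOMB against SOMA are filled and to the right of 0, whereas those for the difference between culture and embryo (bottom) are filled and to the left, at −1.41, −1.94 and −1.81.

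The same fit compared cultured cells with uncultured ones, under the same limit. CTRL against SOMA, 0 of 3 members were called by edgeR or DESeq2 and 1 (Boc) had an unadjusted p under 0.05, where 29.4% of all genes were called (16% higher, 13.4% lower). The values were 0.12 ± 0.16 for Cdon (adjusted p = 0.593), 0.45 ± 0.18 for Boc (adjusted p = 0.0573) and −0.16 ± 0.20 for Gas1 (adjusted p = 0.572). Boc passed without CTRL1, CTRL2 or SOMA1 (adjusted p = 0.0190, 0.0487 and 0.0249). DIR against SOMB, all 3 were lower, where 43.5% of all genes were called (23% higher, 20.4% lower): Cdon 2.44-fold (−1.29 ± 0.14, adjusted p = 1.31e-07), Boc 2.81-fold (−1.49 ± 0.16, adjusted p = 1.03e-07) and Gas1 3.92-fold (−1.97 ± 0.19, adjusted p = 9.17e-09).

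Around the co-receptors, ligand and release genes were not called in either of the main comparisons. Shh averaged 1.69 CPM in CTRL, 1.45 in DIR, 1.61 in SOMA and 1.69 in SOMB, against 36.8 CPM in WT and 37.5 CPM in MUT. None of 6 ligand and release genes was called by edgeR in SOMB against SOMA (DESeq2 0, and 1 higher at an unadjusted p under 0.05). In DIR against CTRL edgeR also called 0 of 6, DESeq2 called 3 lower, and 3 were lower at an unadjusted p under 0.05. Among them was Disp1, which releases lipid-bearing Hedgehog from cells (36.1 ± 5.87 CPM in CTRL, 22 ± 3.23 in DIR; −0.73 ± 0.16, edgeR adjusted p = 0.0897).

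Of receptors and antagonists 1 was called. From SOMA to SOMB 1 of 5 was higher, Hhip, a surface antagonist that binds the ligand (1.78 ± 0.19, edgeR adjusted p = 2.30e-05). Ptch1, the main receptor and itself a target, had 155.1 ± 10.3 CPM in SOMA and 198.9 ± 46.0 in SOMB (0.36 ± 0.19, adjusted p = 0.361). In culture Ptch1 had 177.0 ± 29.2 CPM in CTRL and 252.0 ± 29 in DIR (0.49 ± 0.15, adjusted p = 0.191), and Smo, the transducer that SAG binds, was at −0.31 ± 0.19 (adjusted p = 0.461). There edgeR and DESeq2 called 0 of 5, with 2 higher at an unadjusted p under 0.05.

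Among 16 intracellular transducers, Gli2, the main activator among the Gli factors, was the only one higher in SOMB than in SOMA (0.57 ± 0.15, edgeR adjusted p = 0.0216). Gli3, the main repressor, was at −0.05 ± 0.19 (adjusted p = 0.952). In DIR against CTRL edgeR and DESeq2 called 0 of 16, and 4 were lower at an unadjusted p under 0.05 (Gli3, Gpr161, Evc and Evc2). Gli3 was at −0.67 ± 0.25 (adjusted p = 0.267). Gli2 was not among them, at −0.39 ± 0.18 (adjusted p = 0.340). By the difference between culture and embryo, Gli2 was lower (−0.95 ± 0.21, adjusted p = 0.00717), as were the ciliary protein gene Evc (−0.72 ± 0.19, adjusted p = 0.0202), Disp1 (−0.89 ± 0.23, adjusted p = 0.0179) and Scube3 (−0.90 ± 0.26, adjusted p = 0.0395), which encodes a secreted helper of ligand release. These are 4 of 39 Hedgehog genes lower and 0 higher, where 2.38% of all genes were lower. The count of lower genes was 1 without SOMA4, 2 without CTRL4 and 6 without CTRL1 or without DIR2.

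Of 12 target genes tested, 5 were higher and 1 lower in SOMB than in SOMA, where 4.13% of all genes were higher and 4.55% lower. The higher ones with the lowest p were Hhip, Pax1 and Nkx3-2, a repressor that acts in early sclerotome (2.58 ± 0.38, edgeR adjusted p = 3.14e-04), and the lower one was Mycn, a gene of the Myc proto-oncogene family (−0.56 ± 0.09, adjusted p = 4.83e-04). Of 11 tested in culture, Pax1 alone was called, from 1.33 ± 0.469 CPM in CTRL to 20.6 ± 11.8 in DIR. Over all Hedgehog lists this made 1 of 35 genes higher and 0 lower, where 0.303% and 0.444% of all genes were called. In the edgeR fit of all 29 libraries 4 were higher and 8 lower of 39, beside 801 and 681 of 15223 over all genes. With DESeq2 1 was higher and 3 lower of 35, beside 201 and 295 of 14190 over all genes. Gli1, the target most used as a readout of the pathway, had 85.1 ± 23.6 CPM in CTRL and 82.6 ± 13.8 in DIR (−0.06 ± 0.20, adjusted p = 0.911). It had 59.5 ± 28.3 CPM in SOMA and 89.3 ± 16.9 in SOMB (0.57 ± 0.25, adjusted p = 0.221). The medians of the targets were 0.35 in the embryo and 0.09 in culture, beside 0.01 and −0.01 over all genes. From SOMA to SOMD, 10 of 36 Hedgehog genes were higher and 1 lower, where 10.8% of all genes were higher and 8.92% lower. Among them were Pax1 (4.81), Nkx3-2 (4.64) and Hhip (2.18), with Mycn lower (−0.60). With 1 library left out, the number higher ran from 7 (as without SOMA3) to 11 (without SOMD3). These lists were drawn up with earlier results of these data known.

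**Figure D4:**
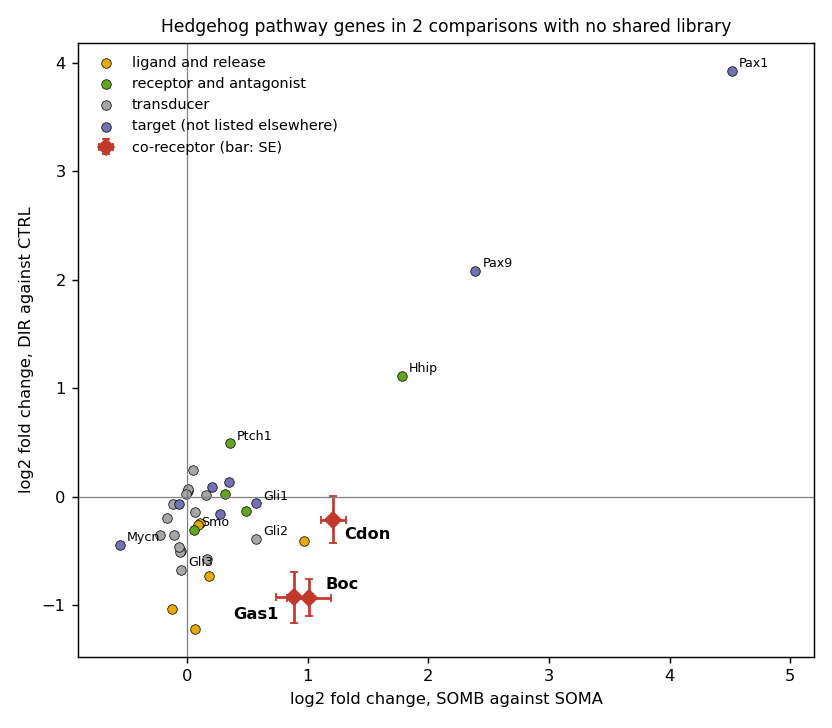
Log2 fold changes of Hedgehog pathway genes from SOMA to SOMB (x axis) and with LDN and SAG (DIR against CTRL, y axis); each circle is a gene tested in both, colored by its role, and diamonds with SE bars are the co-receptors. Pax1, Pax9, Hhip and Ptch1 have values above 0 on both axes, while Cdon, Boc and Gas1 lie to the right of 0 on the x axis and below 0 on the y axis. Other genes, among them Gli1, Gli2, Disp1 and Evc, lie in that same part of the plot, and the SE bar of Cdon on the y axis reaches 0.

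Of 7 relatives of Cdon and Boc with immunoglobulin and fibronectin repeats, 2 axon guidance receptor genes were higher in SOMB than in SOMA, Dcc (1.08 ± 0.28, edgeR adjusted p = 0.0245) and Robo1 (0.42 ± 0.11, adjusted p = 0.0175). The median of the 7 was 0.04, beside 0.01 over all genes. In culture edgeR called 0 of 7, DESeq2 called 2 lower, and 2 were lower at an unadjusted p under 0.05. The relatives of Gas1 (GDNF family receptor genes and their partner Ret) included 0 of 5 called from SOMA to SOMB by edgeR or DESeq2, also at an unadjusted p under 0.05. From SOMC to SOMD, 2 of these 5 were lower, Gfra3 (−1.26 ± 0.20, adjusted p = 0.00349) and Ret (−1.51 ± 0.35, adjusted p = 0.0329), where 1.07% of all genes were lower. Gas1 was not called at this step, though all SOMD libraries had less of it than SOMC. The near-identical libraries counted as separate replicates here. With them summed, the genes called at this step went from 322 to 51. By the difference between culture and embryo, 1 of 8 relatives of Cdon and Boc was lower (Robo1, −0.75 ± 0.17, adjusted p = 0.00886) and 1 of 5 relatives of Gas1 was higher (Gfra3, 0.99 ± 0.29, adjusted p = 0.0447).

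Cdon and Boc also act in contacts between muscle precursors, together with cadherins, neogenin and netrin. Of 12 genes of that list, 3 were higher in SOMB than in SOMA, namely the myogenic factor gene Myf5 (3.11 ± 0.42, edgeR adjusted p = 1.64e-04), the muscle cadherin gene Cdh15 (2.54 ± 0.43, adjusted p = 0.00112) and the netrin gene Ntn3 (0.57 ± 0.16, adjusted p = 0.0391). In culture Myf5 alone of 11 was called. It fell by 3.0 ± 0.39 (adjusted p = 0.00873), from a low 2.01 ± 0.722 CPM in CTRL to 0.251 ± 0.0929 in DIR. The median of the 11 was −0.02, beside −0.01 over all genes.

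The mutant trunk did not differ detectably from wild type in any co-receptor. Cdon stood at 118.3, 120.5 and 116.9 CPM in MUT and 120.2, 120.2 and 150.3 in WT, where WT3 stood apart from the rest (−0.13 ± 0.09, edgeR adjusted p = 0.541). Boc stood at 47.3, 47.8 and 52.1 CPM in MUT and 46.0, 38.4 and 51.5 in WT (0.12 ± 0.11, adjusted p = 0.686). Gas1 stood at 249.6, 178.3 and 239.1 CPM in MUT and 184.7, 185.9 and 218.7 in WT (0.18 ± 0.12, adjusted p = 0.535). The levels of all 3 genes overlapped between the groups. So did Gas1 per Cdon and Gas1 per Boc, while Cdon per Boc did not, and no ratio was tested. By edgeR or DESeq2 0 of 3 members were called or had an unadjusted p under 0.05, where edgeR called 0.338% of 14485 genes (0.331% higher, 0.0069% lower). MUT2 and MUT3 had high Xist and MUT1 and all WT libraries low Xist, so sex moves with genotype in part. MUT1 less the mean of WT was −0.13 in log2 CPM for Cdon, 0.07 for Boc and 0.35 for Gas1. None of the 39 Hedgehog genes tested was called by edgeR either, where DESeq2 called 2 lower, both transducers. Over all 14485 genes DESeq2 called 501 higher and 254 lower. At an unadjusted p under 0.05 in edgeR, 1 transducer was higher, and 2 transducers, 1 receptor gene and 1 target were lower.

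WT trunk held more Cdon than the mean of the 4 SOM groups, with dissection, sorting and library set not to be told apart from the groups. That mean takes in SOMA, which had 39.96 CPM. WT averaged 130.2 CPM, beside 112.1 in SOMD and 111.2 in SOMC, and MUT (116.9 to 120.5 CPM) overlapped SOMC (92.9 to 119.7 CPM). Against the mean of the SOM groups, WT was 1.58-fold higher for Cdon (0.66 ± 0.12, edgeR adjusted p = 3.60e-05), with 0.01 ± 0.14 for Boc (adjusted p = 0.967) and −0.02 ± 0.16 for Gas1 (adjusted p = 0.937). Thus 1 of 3 members was higher, no more than the share over all genes, of which 65.4% were called (33.3% higher, 32.1% lower). Without scaling the median of all genes moved from 0.00 to 0.13 in this comparison and Cdon to 0.78. Neural tube, neural crest and blood RNA was higher in the trunk libraries throughout, and its part in the level of Cdon was not tested.

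Levels of different genes can be compared only per length of transcript. On that scale Gas1 was the most abundant co-receptor transcript in every group. In SOMA it had 44.7 ± 12.5 CPM per kilobase, against 5.33 ± 0.504 for Cdon and 5.88 ± 1.17 for Boc. In SOMD the values were 63.8 ± 4.15, 14.9 ± 0.595 and 11.9 ± 1.88, and in DIR 21.2 ± 4.77, 5.07 ± 1.4 and 4.27 ± 0.507. Gas1 made 79.5% of the sum of the 3 in SOMA, 77.3% in SOMB, 75.5% in SOMC and 70.4% in SOMD, and 73.6% in CTRL and 69.1% in DIR. Over the same SOM groups Cdon made up 9.77%, 11.55%, 13.2% and 16.5%, with all SOMD libraries (15.7 to 17.1%) above all SOMC libraries (12.1 to 15.2%). The ranges of Cdon and Boc overlapped in CTRL, DIR and all 4 SOM groups, and Cdon was above Boc in every MUT and WT library. These shares rest on 1 annotated transcript per gene, and which isoforms were present was not measured.

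The 15 SOM libraries served to list the genes whose log2 levels ran most like each member, out of 10289 genes with at least 5 CPM on average, as a description with no test. The points share groups, library sets and near-identical pairs, and the large step from SOMA to SOMB alone gives high values. For Cdon these were Rgmb, a BMP co-receptor (Pearson r 0.996), Hs6st2, which sulfates heparan sulfate (0.987), Lum, a matrix proteoglycan (0.976), the transcription factor gene Ebf3 (0.973) and Parva, a focal adhesion protein (0.973). For Boc they were Gli2 (0.968), the neuropilin genes Nrp1 (0.964) and Nrp2 (0.962), Rassf1 (0.962) and the kinase gene Prkce (0.955). For Gas1 they were Postn, a matrix protein (0.963), the ligand gene Wnt2 (0.937), the transcription factor gene Twist2 (0.934), Cxxc5 (0.931) and the relaxin family receptor gene Rxfp3 (0.929).

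No member was among the first 5 of another member's list, and any gene outside those 5 has a lower r by construction. Of the 10289 genes ranked, Boc took place 101 in the list of Cdon (0.912), and Cdon place 34 in that of Boc. Gas1 took place 522 in the list of Cdon (0.764) and place 548 in that of Boc (0.730). In the list of Gas1, Cdon took place 142 and Boc place 206. Over the 12 SOMB, SOMC and SOMD libraries alone r was 0.40 between Cdon and Boc, −0.18 between Cdon and Gas1 and −0.11 between Boc and Gas1. In the 8 culture libraries Boc and Gas1 had an r of 0.91 and Cdon and Boc of 0.24.

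The leading pairs were chosen on these same 15 libraries, so their likeness within groups is no independent support. The r of deviations from group means was 0.94 for Cdon and Rgmb, 0.96 for Boc and Gli2 and 0.86 for Gas1 and Postn, against 0.29 for Cdon and Lum. Rgmb had 18.5 ± 0.745 CPM in SOMA, 32.4 ± 1.66 in SOMB, 36.5 ± 2.94 in SOMC and 35.3 ± 1.67 in SOMD. In culture it went from 20.1 ± 2.05 CPM in CTRL to 29.9 ± 5.32 in DIR, with each DIR library above each CTRL library. Cdon did not rise there, and r over those 8 libraries was 0.12. In the trunk Rgmb had 25.3 ± 2.40 CPM in MUT and 28.8 ± 5.61 in WT. These means were below those of SOMB, SOMC and SOMD, while the means of Cdon were above them. Boc and Gli2 had an r of 0.82 over the culture libraries, but 0.41 after the 2 libraries farthest from the median of Boc were left out. Gas1 and Twist2 had 0.64 there and 0.74 after the same step.

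**Figure D5:**
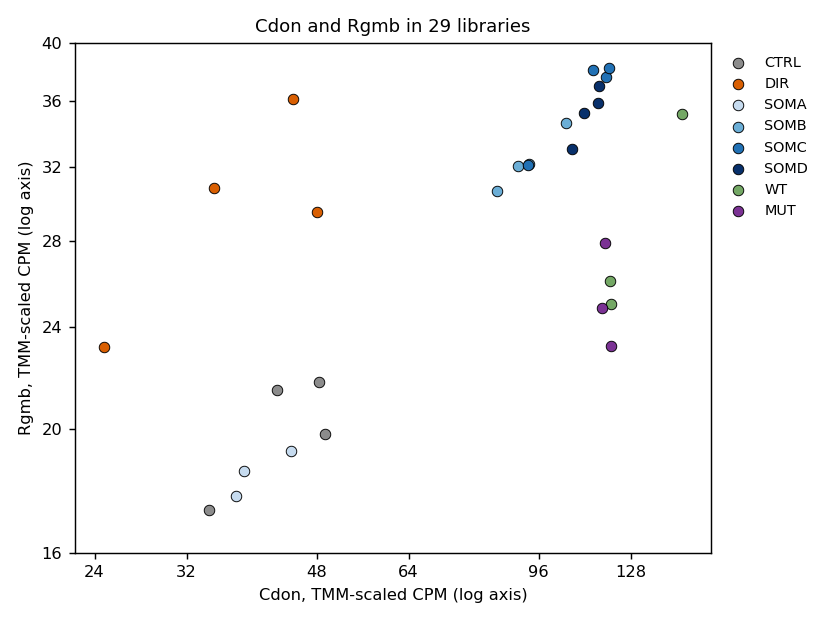
Cdon (x axis) against Rgmb (y axis), both in TMM-scaled CPM on log axes, with 1 point per library colored by group. The SOM libraries follow a single line from SOMA to SOMC, whereas the DIR libraries have 23.2 to 36.1 CPM of Rgmb at 24.7 to 48.1 CPM of Cdon, off that line.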

How the data were processed

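The deposited files hold raw counts of aligned reads per gene symbol, made by the authors, with 23337 gene rows; the 5 summary lines that HTSeq adds were removed. Libraries were made with a TruSeq kit that does not mark strand and 11 rounds of PCR, per the labels' protocols. The submitters' processing notes name TopHat2 2.0.9, Cufflinks, HTSeq 0.6, DESeq2 1.10 and mm10; neither annotation nor strand setting is given in the sources used here.

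In all, 3 fits were tested by edgeR 4.0.16 (R 4.3.3) with quasi-likelihood F tests: 8 culture, 15 SOM and 6 trunk libraries. A fit of all 29 gave contrasts across these sets and levels. Genes passed filterByExpr (minimum count 10, total 15); scaling was TMM, the prior count 0.125, and calls used a Benjamini-Hochberg adjusted p under 0.05, taken over every gene tested. The code was tested on simulated data. Within-batch differences use log2(CPM + 0.5). Positions and lengths come from GENCODE M21, matched by symbol. The plots come from Python 3.11.15 and matplotlib 3.10.9.

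The members and gene lists were chosen with earlier results of these data known. Genes were named by rule: the members; up to 3 genes per list with the lowest p among those called; Gli1, Ptch1, Smo, Gli3 and Shh; and the 5 genes most like each member. Disp1, Pax9, Hhip, Gpr161, Evc and Evc2 outside that rule, and Gli2 in culture, were named after their values were seen. Same-numbered libraries deviated together (r over 0.1 for every pair) in SOMB against SOMA (0.57 to 0.60, 3 pairs) and SOMD against SOMC (0.60 to 0.72, 4 pairs), a pairing from the data and not the labels. The replicate block in SOM was fitted over all 15 libraries, also across steps where some pairs deviated in opposite directions. Alternatives were RLE factors, no scaling, no filter, DESeq2 1.42.0, the replicate block, all libraries in 1 fit, technical shares or Xist as terms, near-identical libraries summed and each library left out. Foxf1 was not analysed here.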

Additional observations from a re-analysis of the deposited data

Results flagged for a closer look

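The change of each co-receptor with LDN and SAG differed from its change between SOMA and SOMB, by a test of the difference itself over 29 libraries. The log2 differences were −1.41 for Cdon, −1.94 for Boc and −1.81 for Gas1.

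In SOMD, Boc had 1 library far above the other 3, SOMD2 at 65.6 CPM against 48.2 to 49.5 CPM. By Dixon's criterion, applied to 15 groups of 4 libraries, chance marks about 1 group in 20 where the libraries are independent. SOMD1 and SOMD4 were nearly identical in their counts over all genes, as were SOMC1 and SOMC4, so that rate does not hold for SOMD or SOMC.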

How the results depend on the processing

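Of 465 values of the members recomputed under other settings or without 1 library, 442 stayed on their side of the threshold, 15 no longer passed, 8 newly passed and 0 changed direction after being called. Every library held at least 339 counts of each member.

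Boc in DIR against CTRL no longer passed with RLE factors (−0.92) or without scaling (−0.97), and lay between −1.03 and −0.81 with a library left out. Gas1 there passed with DESeq2 (−0.92) and with all libraries in 1 fit (−0.91). Gas1 in SOMD against SOMC passed with the replicate block (−0.40) or with the no-feature read share as a term (−0.41). Gas1 in SOMD against SOMA no longer passed with all libraries in 1 fit (0.51) or near-identical libraries summed (0.50), and lay between 0.36 and 0.77 with a library left out. Boc in CTRL against SOMA passed without scaling (0.52) and lay between 0.33 and 0.63 with a library left out. The causes were not tested. Unscaled MUT levels were 126.5 CPM for Cdon and 52.3 CPM for Boc. The replicate block changed no other call of a member.

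Counts of genes called moved by over 1.5 times as follows. DIR against CTRL gave 106, but 496 with DESeq2, 256 with the block, 1482 in the fit of all libraries, 216 with the multiply aligned share as a term, 254 with its low-share libraries and 40 (without CTRL4) to 97 with a library left out. SOMB against SOMA gave 1196, but 776 in the fit of all and 796 without SOMA4. SOMC against SOMB gave 114, but 286, 179 and 39 with DESeq2, the block and the fit of all, 15 with libraries summed and 25 (without SOMB4) to 131 with 1 left out. SOMD against SOMC gave 322, but 497 with DESeq2, 142 in the fit of all, 537 with the no-feature term, 51 with libraries summed and 130 (without SOMD4) to 372 with 1 left out. MUT against WT gave 49, but 106 without scaling, 197 without a filter, 755 with DESeq2, 328 with the block, 21 in the fit of all, 1 with Xist as a term and 0 without MUT2, WT1 or WT2 to 88 without WT3. The difference between culture and embryo gave 756, and 440 without SOMA4 or 1476 without CTRL1. CTRL against SOMA gave 2429 higher and 2043 lower, and 2933 and 1481 without scaling.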
